A study of Mus musculus with 6 samples.

Results

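The azurophil granule protein genes Elane, Mpo, Prtn3, Ctsg and Ms4a3 were followed array by array in long-term haematopoietic stem cells (LT-HSC) from Irf8 knockout and wildtype mice. They were taken by name from a list of primary granule genes of early granulocyte progenitors, and each was measured by 1 probe set that names a single gene, so 5 probe sets stood for 5 of the 18193 genes tested. All 5 probe sets carry the plain suffix that the manufacturer gives to probes meant for 1 transcript. The stem cells were sorted from bone marrow as lineage negative, Sca-1+, c-kit+, CD48- and CD150+ cells, with 3 arrays from Irf8-/- mice and 3 from Irf8+/+ mice, all labelled 3 weeks and untreated. No source used here gives the part of Irf8 that was removed, the strain, or the number of animals behind a sample. The question was whether the granule genes differ between stem cells of the 2 genotypes.

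Azurophil granules are the earliest granules that a developing neutrophil makes, at the promyelocyte stage, and they are its store of a haem peroxidase and of neutrophil serine proteases. The genes are switched on in granulocyte-monocyte progenitors under the transcription factors C/EBPα, PU.1, MYB and RUNX1 and are shut off before the later, specific and gelatinase granules form. IRF8 directs such progenitors toward monocytes and dendritic cells, and mice without it accumulate granulocytes. Stem cells defined as CD150+ CD48- stand well upstream of that stage.

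Upstream sequence is shown for 3 members because the data set them apart. Mpo had the widest spread of levels among the members. Elane had the same 3 highest arrays as Mpo, in the same order. Prtn3, the next protein-coding gene to Elane on chromosome 10, did not. Each line gives the 250 bases before the RefSeq start (GRCm38.p6, 5′ to 3′ on the gene's own strand, plus in all 3), with the PU.1 core GAGGAA in capitals. The windows are chr10:79886062-79886311 for Elane, chr10:79879417-79879666 for Prtn3 and chr11:87793534-87793783 for Mpo.
Elane: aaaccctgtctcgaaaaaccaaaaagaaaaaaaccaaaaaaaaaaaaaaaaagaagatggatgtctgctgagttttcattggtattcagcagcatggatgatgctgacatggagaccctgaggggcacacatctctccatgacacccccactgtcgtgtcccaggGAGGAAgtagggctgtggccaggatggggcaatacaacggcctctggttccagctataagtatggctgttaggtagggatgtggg
Prtn3: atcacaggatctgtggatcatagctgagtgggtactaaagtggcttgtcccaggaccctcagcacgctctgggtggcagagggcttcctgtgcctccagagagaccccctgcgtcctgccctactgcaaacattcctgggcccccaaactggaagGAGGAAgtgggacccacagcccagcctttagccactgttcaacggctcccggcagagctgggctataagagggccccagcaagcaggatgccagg
Mpo: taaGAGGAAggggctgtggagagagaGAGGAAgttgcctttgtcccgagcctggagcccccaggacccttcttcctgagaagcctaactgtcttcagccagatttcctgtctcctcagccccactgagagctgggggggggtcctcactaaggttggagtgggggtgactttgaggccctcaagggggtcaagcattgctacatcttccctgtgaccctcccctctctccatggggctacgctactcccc

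Searched on both strands, GAGGAA was found in the windows of 4 of the 5 members and in 23.3% of all 32851 promoter windows of the same length. In Elane and Prtn3 it begins 85 and 95 bases before the start, so the neighbours hold it at nearly the same distance. In Mpo it occurs 2 times, beginning 247 and 224 bases before the start, and in Ctsg 1 time, 216 bases before it. Ms4a3 has no GAGGAA in its window and is the 1 member with the C/EBP letters TTNNGNAA, which 36.8% of all windows hold. The MYB letters AACNG were in 4 of the 5 windows, all but that of Ms4a3, against 74.2% of all windows. No match overlapped a match to another of these motifs in the 3 sequences shown. A match describes letters only, and no binding was measured here.

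Mpo, the gene of myeloperoxidase, which makes hypochlorous acid from hydrogen peroxide and chloride, differed most between arrays. It read 7.48, 12.06 and 12.43 (log2 expression, given throughout in the order of replicates 1 to 3) in knockout arrays, against 6.91, 11.38 and 3.47 in wildtype arrays. Knockout replicates 2 and 3 and wildtype replicate 2 were high, and the remaining 3 arrays were low, so the groups overlapped. The means were 10.66 ± 2.76 in knockout and 7.25 ± 3.96 in wildtype (SD, n = 3 each). The difference was 3.40 with a standard error of 2.18, or 10.6-fold on the linear scale, and its 95% interval ran from -1.78 to 8.59 (limma, adjusted p = 0.887). Within the wildtype group alone the span was 7.90 on the log2 scale, 240-fold, which was wider than the difference between groups.

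Elane encodes neutrophil elastase, the serine protease whose human counterpart is mutated in cyclic and severe congenital neutropenia. It read 5.49, 10.17 and 11.34 in knockout arrays and 7.57, 8.0 and 4.20 in wildtype arrays. Knockout replicates 2 and 3 lay above every wildtype array, while knockout replicate 1 lay below wildtype replicates 1 and 2. The difference was 2.41 (standard error 1.71, 95% interval -1.67 to 6.50, limma adjusted p = 0.887).

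Ctsg encodes cathepsin G, a serine protease of the same granule whose gene stands among the mast cell protease and granzyme genes. It read 5.73, 9.82 and 11.03 in knockout arrays, against 6.81, 9.47 and 6.49 in wildtype arrays. The order of arrays resembled that of Mpo: knockout replicates 3 and 2 and wildtype replicate 2 were the highest, in that order, for Mpo, Elane and Ctsg alike. Knockout replicate 1 had the lowest Ctsg level of all 6 arrays. The difference was 1.27 (standard error 1.50, 95% interval -2.30 to 4.83, limma adjusted p = 0.905).

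Prtn3 encodes proteinase 3, the elastase relative that is the target of antineutrophil cytoplasmic antibodies in human vasculitis. It read 10.31, 9.64 and 10.57 in knockout arrays and 9.04, 9.64 and 10.26 in wildtype arrays. All 6 arrays were within 1.54 on the log2 scale, or 2.90-fold, and wildtype replicate 3, the array with the lowest Mpo and Elane, had the third highest Prtn3. The means were 10.17 ± 0.48 in knockout and 9.64 ± 0.61 in wildtype (SD, n = 3 each). The difference was 0.53 (standard error 0.46, 95% interval -0.57 to 1.63, limma adjusted p = 0.887).

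Ms4a3 encodes a membrane-spanning protein of the MS4A family that in mice marks granulocyte-monocyte progenitors and their progeny. It read 4.58, 6.26 and 9.55 in knockout arrays, against 5.97, 5.80 and 6.07 in wildtype arrays. The wildtype arrays were nearly level, at 5.95 ± 0.14 (SD, n = 3), and the knockout arrays spread to both sides of them, at 6.80 ± 2.53. Knockout replicate 3 stood alone at the top, and knockout replicate 1 was the lowest array. The difference was 0.85 (standard error 1.18, 95% interval -1.96 to 3.66, limma adjusted p = 0.917).

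**Figure D1:**
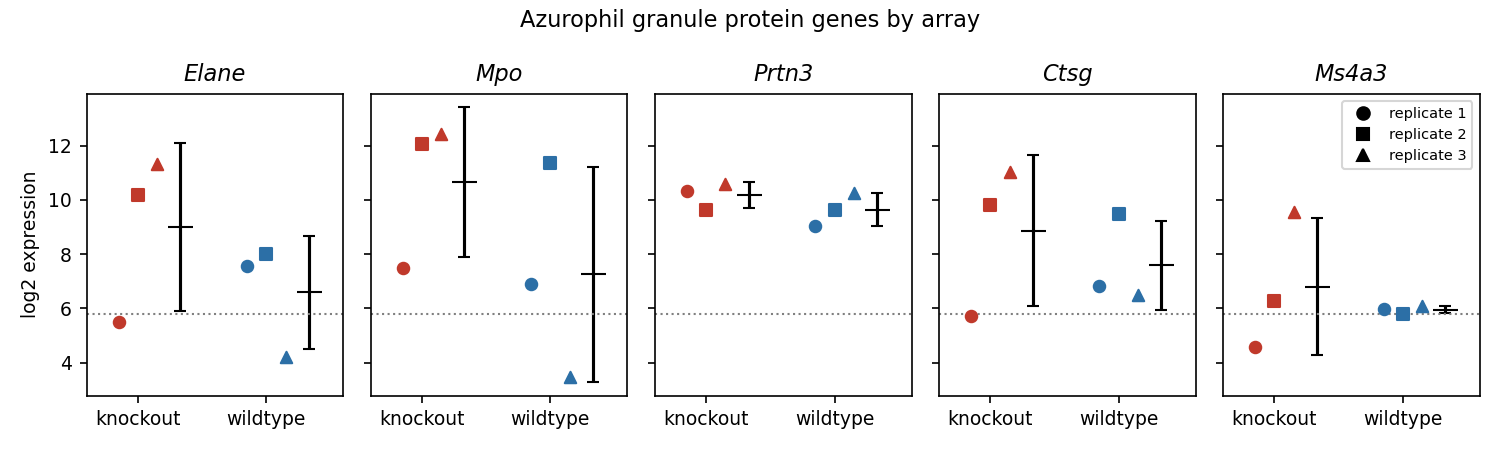
Log2 expression of the 5 azurophil granule protein genes in 3 knockout arrays (red, left) and 3 wildtype arrays (blue, right), 1 point per array with the replicate number as its shape, black bars for mean ± SD (n = 3) and a dotted line at the median gene level of 5.81. Knockout replicates 2 and 3 are high for Mpo, Elane and Ctsg, as is wildtype replicate 2 for Mpo and Ctsg, while Prtn3 lies between 9.04 and 10.57 on all arrays.

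None of the 5 members passed the threshold of 0.05 for adjusted p (limma with Benjamini-Hochberg adjustment over all genes), where 0.0% of the 18193 genes did. None had an unadjusted p under 0.05, where 2.4% of genes were higher in knockout at that threshold and 2.44% lower. The knockout mean was above the wildtype mean for all 5, with a median difference of 1.27, while the median over all genes was 0.07 and 56.6% of genes had a difference above 0. The groups did not overlap for 0 of the 5, against 10.9% of all genes (6.67% higher and 4.25% lower in knockout). In each member 2 of the 3 knockout arrays lay above the highest wildtype array and the remaining array did not, a pattern not counted over all genes. For Mpo, Elane, Ctsg and Ms4a3 the array below was knockout replicate 1, whereas for Prtn3 it was knockout replicate 2. The 95% intervals of all 5 differences include 0, and that of Prtn3 was the narrowest. A probe set measures the mean over all sorted cells, so fewer cells with a transcript and less transcript per cell cannot be told apart.

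Leaving out single arrays moved the differences of all 5 members further than the other settings tried. Across genes, knockout replicate 3 correlated least with the other arrays (mean Pearson r = 0.845, between genes that are not independent). Without it the difference was 2.52 for Mpo, 1.24 for Elane, 0.33 for Prtn3 and 0.19 for Ctsg, and that of Ms4a3 turned to -0.53. Without knockout replicate 1, the lowest knockout array for all members but Prtn3, the differences were 4.99 for Mpo, 4.17 for Elane, 2.83 for Ctsg, 1.96 for Ms4a3 and 0.46 for Prtn3. Without wildtype replicate 2 they were 5.47 for Mpo, 3.12 for Elane and 2.21 for Ctsg, and without wildtype replicate 3 they were 1.51, 1.22 and 0.72 in the same order. Across these fits the smallest adjusted p of a member was 0.77 (limma).

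**Figure D2:**
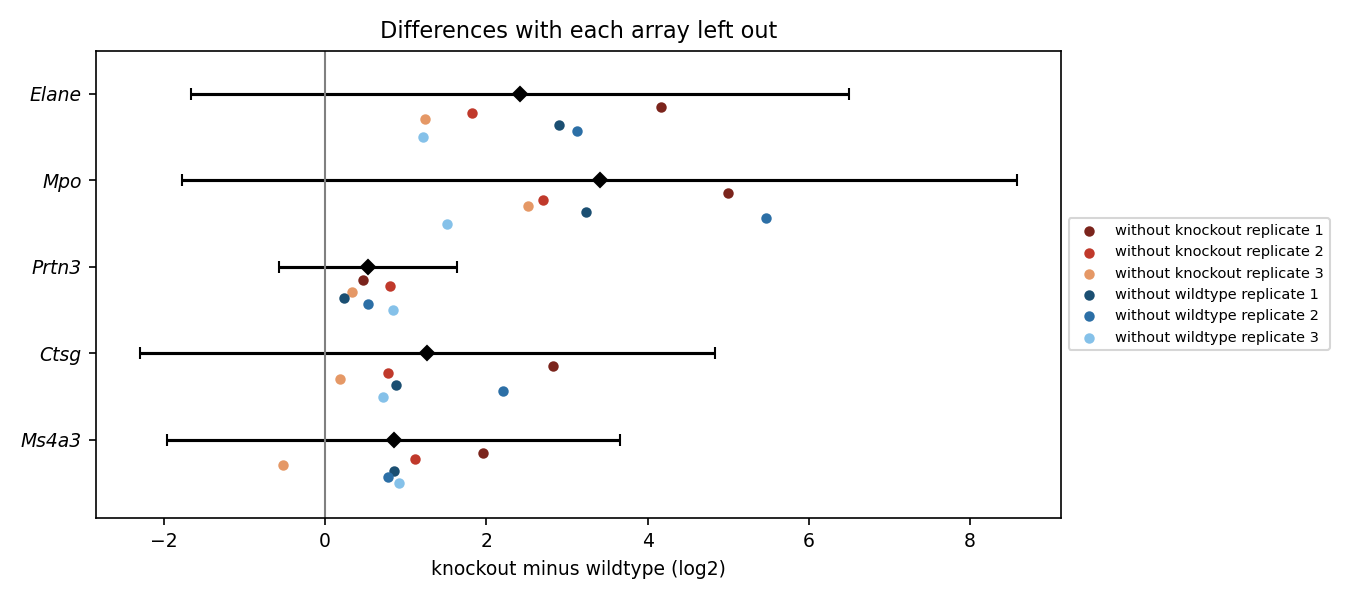
Knockout minus wildtype differences (log2) of the 5 genes with all arrays (black diamonds, bars for the 95% interval from limma) and with 1 array left out at a time (coloured points). Only the point for Ms4a3 without knockout replicate 3, at -0.53, lies below 0, and the points for Prtn3 stay between 0.23 and 0.84.

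The levels of Mpo, Elane and Ctsg varied more between arrays than those of most genes. The standard deviation over the 6 arrays was 3.58 for Mpo, 2.70 for Elane, 2.15 for Ctsg, 1.67 for Ms4a3 and 0.57 for Prtn3, while the median over all genes was 0.52. Only 2 of 18193 genes had a larger value than Mpo: Xist and the granulocyte gene Chil3, named here after their values were seen. For Elane 48 genes had a larger one, for Ctsg 293 and for Ms4a3 1142, whereas Prtn3 stood near the middle, with 52.9% of genes below it. Spread depends on level and on the probes, and this comparison is a description with no test.

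**Figure D3:**
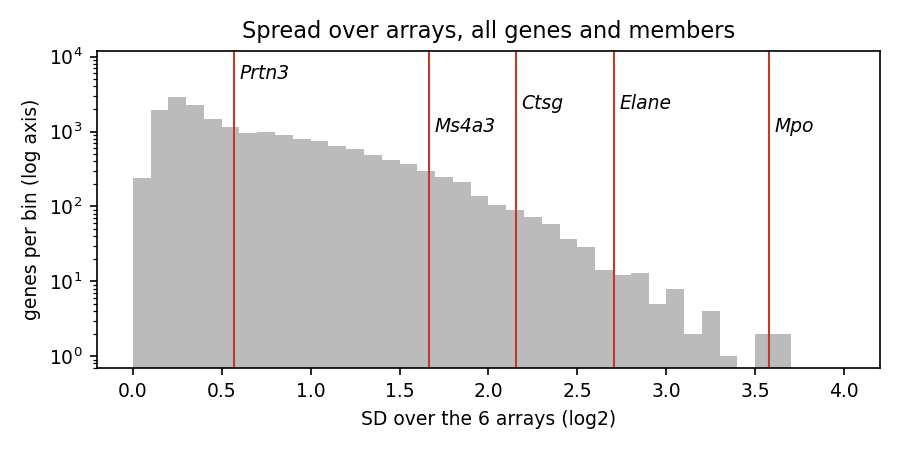
Standard deviation of log2 expression over the 6 arrays for 18193 genes (grey histogram, 0.1 per bin, log axis of gene counts) with a red line at each of the 5 members. Mpo, at 3.58, stands at the far right end, and Prtn3, at 0.57, near the median of 0.52.

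The likeness between members was measured as the root mean square distance between their levels over the 6 arrays, after each was centred on its own mean. Elane and Ctsg were the closest pair at 1.09, followed by Ctsg and Ms4a3 at 1.29 and by Prtn3 and Ms4a3 at 1.41. The genes Elane and Prtn3, next to each other on the chromosome, were 2.54 apart, and Mpo and Prtn3 were the farthest pair at 3.30. By the same measure, the genes outside the list most like the members' median profile were Tiam1 (0.49), Ncam1 (0.52), Rabggta (0.60), Itpk1 (0.62), Zfp513 (0.63) and Hgsnat (0.67). The members, from which that profile was taken, were 0.58 (Ctsg), 0.90 (Elane), 0.98 (Ms4a3), 1.79 (Prtn3) and 1.95 (Mpo) away from it. The median over the other genes was 1.83, so Mpo was farther than the median gene and Prtn3 about as far. Tiam1 read 5.83, 8.54 and 10.22 in knockout arrays and 6.57, 6.36 and 5.69 in wildtype arrays. Itpk1 read 5.25, 9.09 and 9.08 in knockout arrays and 5.50, 7.69 and 5.68 in wildtype arrays, so it was high in the same 3 arrays as Mpo and Ctsg.

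The neighbours of the members on their chromosomes had mixed directions. Among the 3 protein-coding genes on each side of every member, 21 other genes were measured, with differences from -2.00 to 1.45, 12 above and 9 below 0, and none passed (smallest adjusted p 0.887, limma). In 3 of the 21, Rnf43, Tspoap1 and Gzmg, knockout replicate 3 and then knockout replicate 2 were the highest arrays, as in Mpo, Elane, Ctsg and Ms4a3. The third highest was wildtype replicate 3 for Rnf43, as for Ms4a3, and knockout replicate 1 for Tspoap1 and Gzmg. For Mpo, Elane and Ctsg it was wildtype replicate 2. Rnf43 and Gzmg lay below the median gene level on every array, and Tspoap1 on every array but knockout replicate 3. The share of all genes with this order was not counted. Tspoap1, beside Mpo, read 3.40, 4.22 and 6.11 in knockout arrays, against 3.07, 2.98 and 3.32 in wildtype arrays, and its difference of 1.45 (standard error 0.64) was above that of Ctsg. Gzmg, a granzyme gene beside Ctsg, read 3.96, 4.63 and 5.32 in knockout arrays, against 3.91, 3.77 and 3.80 in wildtype arrays. Beside Elane and Prtn3, the splicing regulator Ptbp1 differed by -0.17 and Plppr3 by -0.14. Beside Mpo, the related peroxidase genes Lpo (lactoperoxidase) and Epx (eosinophil peroxidase) differed by 0.31 and -1.04. Beside Ctsg, the basophil protease Mcpt8 read 5.27, 4.32 and 5.69 in knockout arrays, against 4.40, 9.26 and 7.63 in wildtype arrays. Mcpt8 thus shared the high wildtype replicate 2 with Ctsg and was not high in the knockout arrays where Ctsg was. The whole set of relatives (peroxidases, granzymes, mast cell proteases and MS4A genes) had 19 of 29 measured genes above 0, with a median difference of 0.07, and 3 of the 29 had a mean above the median gene level. Of these relatives Ms4a15 differed by 0.41, and Ms4a6b, with 9.13 in knockout replicate 3, read between 3.98 and 6.75 in the other arrays.

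Other contents of the azurophil granule went in both directions. Of 10 measured genes, 5 were above and 5 below 0, 0 passed, and the median difference was -0.14. The sign of that median was not stable: it was 0.10 without knockout replicate 1, -0.39 without wildtype replicate 3 and 0.21 when each gene's probe sets were averaged. The lysozyme genes Lyz1 and Lyz2, shared with later granules and with macrophages, differed by 0.07 and 0.22. Ctsd, the lysosomal aspartic protease cathepsin D, read 8.83, 9.02 and 9.39 in knockout arrays and 9.60, 9.70 and 10.34 in wildtype arrays, a difference of -0.80 (standard error 0.41), with no overlap between groups. Man2b1, a lysosomal mannosidase, differed by 1.10, and Hexa, a subunit of hexosaminidase, by -1.87, with 5.54 in knockout replicate 3 against 9.93 to 11.16 in the other arrays. Prss57, Bpi and Cd63 were not analysed here.

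Genes for making and packing the granule proteins had a median difference of -0.23, with 5 of 14 above 0, 9 below and 0 that passed. The median was -0.13 without wildtype replicate 2 and -0.43 when each gene's probe sets were averaged. Srgn, the proteoglycan serglycin that holds the proteases in the granule, read 12.41, 12.50 and 12.20 in knockout arrays and 12.63, 12.69 and 12.43 in wildtype arrays. Ctsc, the dipeptidyl peptidase that activates elastase, cathepsin G and proteinase 3, read 8.91, 7.33 and 7.10 in knockout arrays and 4.70, 8.78 and 7.12 in wildtype arrays, a difference of 0.91. Ap3b1, a subunit of the adaptor that sorts elastase to granules, read 9.01, 10.08 and 8.36 in knockout arrays, against 11.07, 11.02 and 10.65 in wildtype arrays. All 3 knockout arrays were below the wildtype arrays for Ap3b1, with a difference of -1.76 (standard error 0.50, limma adjusted p = 0.887). Hax1, a mitochondrial protein whose human gene is mutated in severe congenital neutropenia, differed by -1.83, with 7.46 in knockout replicate 3.

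Inhibitors of these proteases had 8 of 10 measured genes above 0 and 0 that passed. Their median difference was 0.22 (0.14 without knockout replicate 3 and 0.43 without knockout replicate 1). It was 0.74 when only genes above the median gene level were fitted, as 5 of the 10 were. Serpinb1a, the intracellular inhibitor of elastase, cathepsin G and proteinase 3, read 9.62, 7.15 and 9.90 in knockout arrays, against 7.73, 4.73 and 7.61 in wildtype arrays. It was lowest in replicate 2 of each group, both of them arrays with high Mpo, and highest in knockout replicate 3, the array with the highest Mpo. Serpinb6b, of the same clade, read 8.40, 8.21 and 9.21 in knockout arrays and 6.44, 5.97 and 8.04 in wildtype arrays, without overlap between groups (difference 1.79, standard error 0.70, limma adjusted p = 0.887). Serpinb6a differed by -1.21.

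Regulators of the granulocyte fate had mixed directions, and Cebpa had another order of arrays than the members. Of 13 measured genes 7 were above and 6 below 0, 0 passed, and the median difference was 0.30 (0.14 without wildtype replicate 1 and 0.57 without wildtype replicate 2). Cebpa, whose product activates the Elane and Mpo genes, read 7.46, 9.89 and 5.70 in knockout arrays, against 3.79, 3.60 and 3.47 in wildtype arrays. All 3 knockout arrays were above the wildtype arrays for Cebpa, as for 6.67% of all genes. The difference was 4.06 (standard error 0.98, limma adjusted p = 0.887). The highest Cebpa level was in knockout replicate 2 and the lowest among knockout arrays in replicate 3, where all 5 members were highest. Wildtype replicate 2, with 11.38 for Mpo, had 3.60 for Cebpa. Whether Cebpa had a part in the members' levels was not tested. Myb, Runx1 and Spi1 (the gene of PU.1) differed by -0.04, -0.08 and 1.09. Csf2rb, the shared receptor chain for GM-CSF, IL-3 and IL-5, differed by 2.08 (standard error 0.57), and Csf2ra, the GM-CSF receptor alpha chain, by 1.17 (standard error 0.65); neither passed (limma adjusted p = 0.887 each).

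Genes of later granules had another order of knockout arrays than the azurophil genes. This list covers specific and gelatinase granule proteins together with calprotectin and other late neutrophil genes. It had a median difference of 2.12 with 15 of 15 measured genes above 0 and 0 that passed. In 7 of them the lowest knockout level exceeded the highest wildtype level, against 6.67% of all genes. Of the 15, 9 had a mean above the median gene level. Mmp8 and Cybb, among the 7, had means below it (3.71 and 4.92). Relative to each gene's wildtype mean, the median of the later granule genes was 2.32, 0.20 and 4.63 in knockout replicates 1 to 3, while that of the azurophil members was -1.10, 2.23 and 3.60. S100a9 and S100a8, which together form calprotectin, differed by 2.01 (standard error 0.34) and 2.12 (standard error 0.40; limma adjusted p = 0.74 and 0.88). Ltf (lactoferrin) read 8.0, 4.48 and 11.63 in knockout arrays and 4.59, 5.08 and 4.48 in wildtype arrays. Camp (the cathelicidin of specific granules) read 10.32, 9.36 and 12.93 in knockout arrays and 8.56, 6.68 and 6.70 in wildtype arrays. Of the 15 later granule genes, 12 lay above every wildtype array in knockout replicate 1, 8 in knockout replicate 2 (Camp and both calprotectin genes among them, but not Ltf) and 15 in knockout replicate 3. Of the 5 azurophil members, 1 (Prtn3) did so in knockout replicate 1, 4 in knockout replicate 2 (all but Prtn3) and 5 in knockout replicate 3. The share of all genes that did so was not counted by array. In knockout replicate 3 it held for 16 of 29 relatives, 6 of 11 B cell genes and 6 of 10 T and NK cell genes. There it also held for 3 of 19 stem cell genes and 2 of 10 megakaryocyte genes. The later granule median was 1.31 without knockout replicate 3 and 2.94 without knockout replicate 2. Whether granulocytes in the sorted cells had a part in the members' levels was not tested.

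Markers of progenitors and of other cells also moved with single arrays. The early myeloid progenitor genes had a median difference of 1.04, with 11 of 15 above 0 and 0 that passed, and 0.38 without knockout replicate 3. Fcnb, a ficolin made by bone marrow myeloid cells, read 6.21, 7.26 and 11.29 in knockout arrays and 5.37, 5.17 and 4.53 in wildtype arrays. Gstm1, a glutathione transferase, differed by 1.37. Flt3, a cytokine receptor of multipotent progenitors, read 7.99, 8.56 and 10.55 in knockout arrays and 6.93, 6.19 and 6.63 in wildtype arrays. Cd48, against which the cells were sorted, read 7.60, 9.42 and 3.55 in knockout arrays, against 4.54, 4.31 and 3.13 in wildtype arrays; its lowest knockout level was thus in replicate 3, where the members were highest. Slamf1, the gene of CD150, read 9.02, 8.49 and 4.71 in knockout arrays and 5.97, 9.11 and 6.63 in wildtype arrays. Kit, the gene of c-kit, read 10.46, 8.93 and 8.09 in knockout arrays and 9.38, 9.76 and 9.41 in wildtype arrays. Its difference was -0.36 (standard error 0.65), with the lowest level in knockout replicate 3.

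In wildtype replicate 2, the wildtype array with high Mpo and Ctsg, the eosinophil granule genes Prg2, Epx and Prg3 were high as well. Prg2, the major basic protein of eosinophils, read 10.49 there, against 3.53 to 4.26 in the other 5 arrays. Epx read 7.40 and Prg3 7.87 in that array, against at most 4.08 and 4.11 elsewhere. The eosinophil genes Il5ra and Siglecf, dim on all arrays, were lowest there, at 3.10 and 2.42. The basophil gene Mcpt8 read 9.26 there and 7.63 in wildtype replicate 3. The list of mast cell, basophil and eosinophil genes had 4 of 12 measured genes above 0 and 0 that passed (median -0.18, with Gata2 at -0.23), and relative to the wildtype means its median lay between -0.26 and -0.04 in knockout arrays and between -0.24 and 0.40 in wildtype arrays. Csf1r, the receptor for M-CSF, read 3.40, 9.82 and 3.78 in knockout arrays and 3.22, 8.26 and 6.10 in wildtype arrays, with its highest levels in replicate 2 of each group. The part of these cells in the result was not tested.

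The stem cell genes Hlf, Meis1, Mecom, Gata2 and Procr, which mark or maintain long-term stem cells, read at least 8.47 on all 6 arrays. Of 19 measured stem cell genes, 18 had a mean above the median gene level of 5.81 and 15 lay above it on all 6 arrays; Ly6a was not analysed here. The 4 that did not were Slamf1, Fgd5 and Ctnnal1, with 4.71, 4.94 and 5.31 in knockout replicate 3, and Hoxb5, which ran from 3.95 to 7.56. Ctnnal1 was lower still in wildtype replicate 3, at 4.94. Relative to the wildtype means the stem cell median was 0.36, -0.39 and -1.27 in knockout replicates 1 to 3 and between -0.10 and -0.04 in wildtype arrays, so it ran in the opposite order to the azurophil members in the knockout group. Of the list 6 genes were above and 13 below 0 and 0 passed, with a median of -0.36 (-0.08 without knockout replicate 3, -0.64 without knockout replicate 2 and -0.74 without knockout replicate 1); Procr, the endothelial protein C receptor, differed by -0.75, Ndn by -1.07 and Eng (endoglin) by 0.61. Hoxa9 was 11.38, 10.34 and 6.02 in knockout arrays and 10.26, 10.65 and 11.57 in wildtype arrays. Medians of the B cell, T and NK cell and monocyte and dendritic cell lists stayed within 0.38 of the wildtype mean on every array, and their median levels lay below the median gene level, between 3.72 and 5.04. Above 0 were 5 of 11 B cell genes (median -0.02, Cd79b -1.41 and Ebf1 -0.12). So were 4 of 10 T and NK cell genes (median -0.06, Nkg7 -0.37 and Cd4 -0.12). Of 13 monocyte and dendritic cell genes, 7 were above 0 (median 0.01, Flt3 2.45, Cx3cr1 -1.51 and Klf4 0.56). Cx3cr1 read 8.84 in wildtype replicate 2 and between 4.30 and 4.54 in the other arrays. Erythroid genes had 3 of 10 above 0 (median -0.51, and -0.29 without wildtype replicate 3), with the transcription factor gene Klf1 at -2.21, Car2 at -0.66 and the transferrin receptor gene Tfrc at 0.78. Megakaryocyte genes also had 3 of 10 above 0 (median -0.31, with -0.69 without knockout replicate 2 and -0.19 without wildtype replicate 1), with Thbs1 (thrombospondin) at -2.81, Ppbp at -2.19 and Treml1 at -0.73. Genes that passed numbered 0 in each of these lists.

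**Figure D4:**
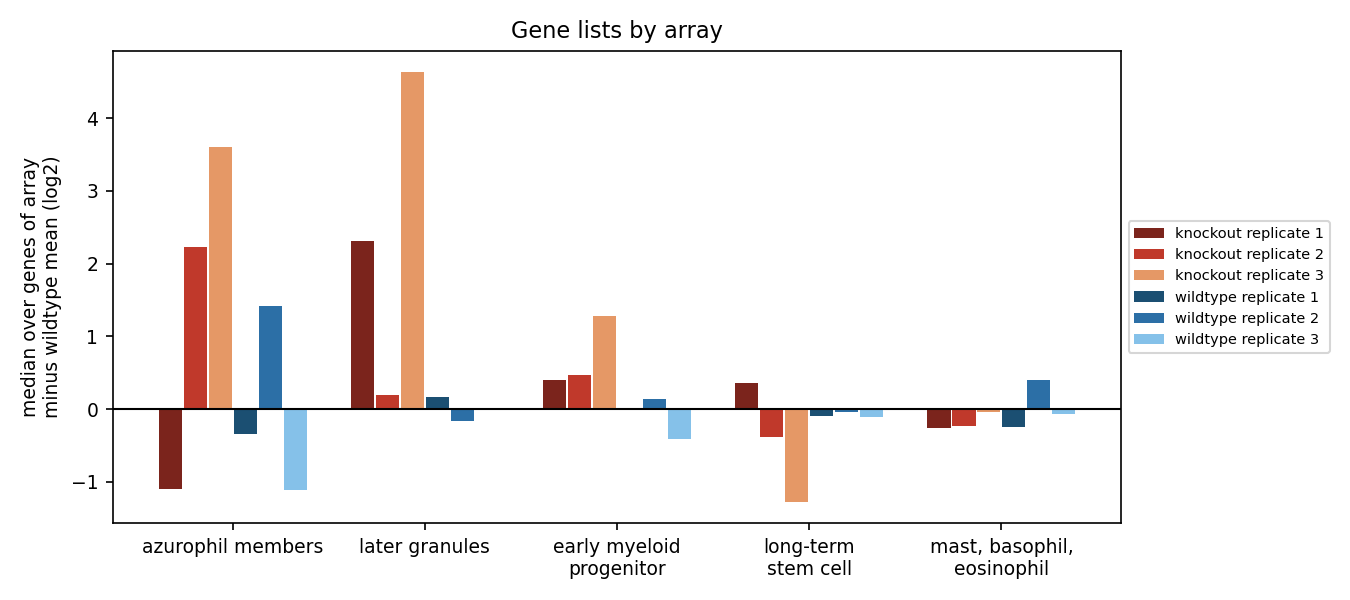
Median over the measured genes of each list of an array's level minus the wildtype mean (log2), with 1 bar per array, knockout arrays in red shades to the left of wildtype arrays in blue shades. The azurophil members are low in knockout replicate 1 (-1.10) and high in replicates 2 and 3 (2.23 and 3.60), whereas the later granule genes are at 2.32, 0.20 and 4.63.

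Array medians ran from 4.85 to 4.96, and 0 pairs of arrays were identical. Irf8 itself read 4.91, 6.39 and 6.50 in knockout arrays and 4.98, 6.43 and 5.16 in wildtype arrays. These values are from the brighter of its 2 single-gene probe sets, and the other is not shown here. The level shown does not separate the labels, and no source used here tells whether the probes lie in the removed part. Irf8 levels were higher in knockout replicates 2 and 3 and wildtype replicate 2, the same 3 arrays in which Mpo and Ctsg were high. Xist, the RNA of the inactive X chromosome, read above 10 in knockout replicate 1 and wildtype replicate 3, and in those arrays the Y-linked Eif2s3y lay below 4. Wildtype replicate 1 had both, with Xist at 7.60 and the highest Eif2s3y, 9.95, whereas Xist read 3.34 to 3.81 in the remaining 3 arrays. Between these 2 arrays, knockout minus wildtype was 4.01 for Mpo, 1.30 for Elane, 0.06 for Prtn3, -0.76 for Ctsg and -1.49 for Ms4a3. Between the means of the other 2 knockout and 2 wildtype arrays, wildtype replicate 1 included, it was 3.10, 2.97, 0.77, 2.28 and 2.02 in the same order. With a term for Xist above 10 in the fit, chosen after the data were seen, the differences were unaltered because each group has 1 such array, the standard error of Elane was 0.66 and that of Mpo 1.16, and no member passed (adjusted p = 0.886 for both, limma).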

How the data were processed

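RNA from the sorted cells was amplified with a kit for small amounts and read on Affymetrix mouse arrays, per the labels' protocols. The authors deposited 1 log2 expression value for each probe set on each array. Per the submitters' processing notes the tools were RMA, Partek and Affymetrix Expression Console, with no version. RMA compresses differences of dim probe sets. No source used here gives the settings. The log2 scale was read from the values.

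Of 45037 probe sets 34945 named 1 gene, 932 several and 9160 none in the platform annotation. The single-gene probe set with the highest mean stood for a gene, giving 18193 genes with no filter on level. The 2 genotypes were compared with limma 3.58.1 under R 4.3.3 (lmFit, eBayes with trend), two-sided, with Benjamini-Hochberg adjustment over all genes. The fit was tested on simulated data. The replicates are called biological, with no animals named, so p-values measure the spread between 3 samples per group. Members, lists, rules and motifs were chosen with earlier results of these data known. Lists are given by counts and medians, with no test. Named were the members, from each list up to 3 genes with the smallest unadjusted p whose higher group mean lay above the median gene level, the target and sort genes, and the 6 genes nearest to the members' profile. Others were added after their values were seen. They were Lyz1, Lyz2, Ctsc, Ltf, other stem cell genes, Myb, Runx1, Spi1, Hoxa9, Csf1r, Prg3, Epx, Il5ra, Siglecf and the chromosomal neighbours. Promoter windows are from RefSeq (GRCm38.p6) and matched all 5 members. Tables used pandas 2.3.3 and numpy 2.4.6 and figures matplotlib 3.10.9, under Python 3.11.15. The number of arrays limits precision.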

Additional observations from a re-analysis of the deposited data

How the results depend on the processing

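With all arrays kept, the differences of the 5 members stayed above 0 and none passed under no trend, array weights, mean of probe sets, all single-gene probe sets, genes above the median level, quantile normalization, arrays centred on their median, replicate block or the Xist pattern term. Their median difference ran from 0.78 to 1.35 there and from 0.33 to 2.83 when single arrays were left out. Leaving out single arrays gave a range of -0.53 to 1.96 for Ms4a3, below 0 without knockout replicate 3, which was the only turn in direction among the members. With 0 genes passing in the fit reported (880 at an unadjusted p under 0.05), 1 gene passed with the mean of probe sets and 1 with arrays centred on their median, Zfp229 in both; the cause was not tested. With the replicate block the median difference was 1.27 and 0 genes passed; same-numbered arrays did not deviate together (correlations of -0.02, -0.01 and -0.01 across genes), so the numbers were not taken as pairs. The medians of the relatives, monocyte and dendritic cell, B cell, T and NK cell and mast cell, basophil and eosinophil lists, all within 0.18 of 0, changed sign under at least 1 setting each, as did that of the other azurophil contents. Over all lists but the members, those just named included, 23 values of list medians under other settings moved by more than the spread between arrays. Dim genes near background had little room to be lower.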
